A study of Mus musculus with 6 samples.

Results

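Small nucleolar RNAs (snoRNAs) and small Cajal body RNAs (scaRNAs) are short noncoding RNAs, and 109 of them were measured in the RefSeq table of 27794 entries that accompanies an RNA-seq time course of TNFα in mouse embryonic fibroblasts (MEFs). They were all of the noncoding (NR_) entries with a symbol starting with Snord, Snora or Scarna. These symbols took up 138 rows, and for each symbol the row with the highest mean over the 8 value columns was kept. Of the 109 members, 65 were box C/D snoRNAs (Snord), 35 were box H/ACA snoRNAs (Snora) and 9 were scaRNAs (Scarna). The choice used the symbol and the level, not any change with treatment.

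Box C/D snoRNAs guide the methylation of ribose in ribosomal RNA, and box H/ACA snoRNAs guide the conversion of uridine to pseudouridine in it. scaRNAs carry the motifs of either class or of both, are held in Cajal bodies, and guide the same modifications in the small nuclear RNAs of the spliceosome. In mammals most of them are cut out of introns of host genes, many of which make ribosomal proteins or other parts of the translation machinery, and the mature RNAs have no poly(A) tail.

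The cells were primary wildtype MEFs of the strain C57BL/6x 129, taken from littermate embryos at 13.5 days and used at passage 4. They were left untreated or were given 20 ng/ml of TNFα, a cytokine that activates the transcription factor NF-κB, for 1.5, 6 or 24 hr, and 1 directional paired-end library was made from poly(A)-selected RNA at each time. The label of the 24 hr library describes chromatin immunoprecipitation as its extraction, whereas its title and treatment are those of the RNA time course, so it was taken to be the 24 hr RNA library. H3K4me3, a histone mark found at active promoters, was measured in untreated cells of the same kind with 1 ChIP-seq library against 1 input library.

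Each RNA library had 2 columns of RPKM values, R1 and R2, which no source calls replicates, so both are given and with 1 library per time no test was possible. The scale of the deposited RPKM is particular to this table, and its values are called units here. They are divided by transcript length, which puts entries of different length on the same scale within the table. Whether short RNAs without a poly(A) tail and longer mRNAs entered the libraries equally was not tested. The summed level of 7 fibroblast markers was between 39120 and 83764 units over the 4 libraries, whereas those of the 4 epithelial and 3 endothelial markers were at most 49.1 and 4.28 units. The 4 leukocyte markers summed to between 301 and 1140 units, nearly all of it from Cd68 and Csf1r, while Cd3e was listed at 0 in every library. Nfkbia, an NF-κB target gene, was at 319 units in the untreated library and at 7211, 2655 and 5772 units at 1.5, 6 and 24 hr. The libraries differed in general level as well, since over the 8203 entries with a mean of at least 100 units the log2 ratio to untreated cells had medians of 0.41, -0.73 and 0.07 at the 3 times.

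Sequences of the members that the comparisons turn on are printed from the mm9 genome at the positions of the GENCODE annotation. Among the 24 members with a mean of at least 100 units, the first 3 are box C/D snoRNAs with the highest level (Snord104, chr11:106362307-106362376, plus strand), the largest ratio to the untreated library (Snord12, chr2:166890776-166890865, plus strand) and the lowest ratio at 1.5 hr (Snord37, chr10:80641695-80641758, plus strand). Capitals mark box C (TGATGA) and box D (CTGA, the last copy).
Snord104: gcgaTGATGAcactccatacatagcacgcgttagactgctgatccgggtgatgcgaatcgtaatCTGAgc
Snord12: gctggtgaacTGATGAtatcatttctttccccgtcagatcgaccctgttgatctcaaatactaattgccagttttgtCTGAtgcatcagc
Snord37: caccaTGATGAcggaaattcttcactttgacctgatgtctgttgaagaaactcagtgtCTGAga
Snord15a (chr7:106631295-106631442, minus strand) and Snord15b (chr7:106628073-106628217, minus strand) lie in the same host gene, Rps3, and are shown as a pair since their levels at 1.5 hr were on opposite sides of the untreated level. They shared 107 of 162 aligned positions (66.0%).
Snord15a: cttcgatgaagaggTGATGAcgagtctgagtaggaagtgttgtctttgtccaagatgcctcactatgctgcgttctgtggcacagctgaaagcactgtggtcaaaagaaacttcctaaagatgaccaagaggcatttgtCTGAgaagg
Snord15b: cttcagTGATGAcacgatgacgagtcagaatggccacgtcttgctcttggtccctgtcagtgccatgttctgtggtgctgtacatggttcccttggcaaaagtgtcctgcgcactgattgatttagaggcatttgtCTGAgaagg
Snora65 (chr2:32818811-32818940, plus strand) and Snora61 (chr4:131866155-131866284, plus strand) represent the box H/ACA class, and the capitals mark the ACA that stands 3 bases from the end.
Snora65: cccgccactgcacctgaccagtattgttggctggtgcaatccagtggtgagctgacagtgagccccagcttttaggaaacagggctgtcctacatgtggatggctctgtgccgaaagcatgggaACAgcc
Snora61: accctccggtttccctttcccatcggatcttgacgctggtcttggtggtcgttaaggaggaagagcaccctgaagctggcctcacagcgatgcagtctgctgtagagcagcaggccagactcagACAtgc
Scarna9 (chr9:15130708-15130777, minus strand) and Snord49b (chr11:62416581-62416652, plus strand) are shown because their R1 and R2 values stood apart in every library, with R1 the higher in Scarna9 and R2 the higher in Snord49b. Capitals again mark box C and box D.
Scarna9: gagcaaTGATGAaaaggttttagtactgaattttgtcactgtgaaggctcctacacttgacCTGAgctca
Snord49b: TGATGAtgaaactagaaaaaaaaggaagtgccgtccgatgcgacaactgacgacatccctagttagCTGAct

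The Snord and Snora members differed in the boxes they held. Of the 109 members, 93 had a position in the annotation under the same symbol. Among the 53 located Snord members CTGA was present in all 53 (100%) and TGATGA in 35 (66.0%), against 22 (41.5%) and 2 (3.77%) of the stretches of the same length directly downstream on the same strand. In 43 of them (81.1%) a CTGA started within the last 12 bases, compared with 5 (9.43%) of the downstream stretches. Of the 31 located Snora members, 25 (80.6%) had an ACA exactly 3 bases from the end and 31 held the box H letters ANANNA, against 2 (6.45%) and 23 (74.2%) of their downstream stretches. CTGA alone did not separate the classes, since 15 Snora members (48.4%) also held it somewhere, although it started within the last 12 bases in 2 of them (6.45% of the 31). Only the member's strand was searched. The located Snord members had a median length of 80 bases and the Snora members of 133 bases, and the 9 Scarna members ranged from 70 to 414 bases. Of the 9, 6 held TGATGA and 2 ended in an ACA at the H/ACA distance.

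Most of the members had a mean under 100 units, as did most entries of the table. The libraries were made from poly(A)-selected and size-selected material, and the part of this selection in the members' levels was not tested. The median of the mean over the 8 columns was 19.2 units for Snord, 29.9 units for Snora and 27.5 units for Scarna. It was 24.2 units over all entries of the table and 4.96 units over the noncoding entries. A mean of at least 100 units was reached by 14 Snord (21.5%), 8 Snora (22.9%) and 2 Scarna members (22.2%), 24 in all. The share was 29.5% of all entries and 15.5% of the noncoding entries. The member just inside this minimum had a mean of 101.95 units and the member just outside it 99.95 units. Of the 109 members, 55 were above 0 in all 8 columns, and Snord64, Snord90 and Snora35 were listed at 0 in all of them (named after their values were seen). Snora35 lies in an intron of Htr2c, a serotonin receptor gene known from the brain, which was listed at 0 as well. The 30 rows of the Snord116 family, the tandem snoRNAs of the Prader-Willi region that are known from the brain, held only 3 different sets of values with means from 5.37 to 6.39 units. Copies of this family share their sequence, so reads cannot be assigned to single copies. The table gives no read counts, so the depth behind a value is unknown and no interval is given. Low values of the table lay at multiples of a fixed step divided by transcript length: among values under 4.5 steps between 52.5% and 59.0% were within 0.05 of a whole step. With annotated lengths, which need not be those the authors divided by, the located members with a mean of at least 100 units had a median of 19.1 steps per value and the other members 1.89, and 48.3% of all values of the located members were under 3 steps. Levels and ratios of the 85 members under the minimum are therefore given as values only where a member is named, and the comparisons between times below use the 24 members above it.

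Snord104, a box C/D snoRNA, had the highest mean, 809 units. Its R1 and R2 values were 394 and 1834 units in the untreated library, 1116 and 770 at 1.5 hr, 350 and 498 at 6 hr, and 764 and 748 at 24 hr. The R2 column was the higher at 0 and 6 hr, and the ratio to the untreated library had opposite signs in the columns at 1.5 hr, with log2 ratios of 1.50 in R1 and -1.25 in R2. Next in the box C/D class was Snord34, with 532 and 223 units in the untreated library, 397 and 157 at 1.5 hr, 693 and 443 at 6 hr, and 438 and 189 at 24 hr. Snord34 was within 2-fold of the untreated library in both columns at every time. Snord22, long known as U22 and needed for the processing of ribosomal RNA, had 270 and 322 units in the untreated library, 220 and 210 at 1.5 hr, 514 and 526 at 6 hr, and 185 and 166 at 24 hr. Its columns lay close together, and it was highest at 6 hr, when the table as a whole was lowest.

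In the box H/ACA class Snora65 had the highest mean, 433 units, followed by Snora78 with 307 units. As deposited Snora78 varied little, with 300 and 329 units in the untreated library, 218 and 232 at 1.5 hr, 320 and 318 at 6 hr, and 377 and 361 at 24 hr. After the scaling described below, its log2 ratios were -0.91, 0.82 and 0.16 at 1.5, 6 and 24 hr. Snora52 had 169 and 99.1 units in the untreated library, 152 and 102 at 1.5 hr, 178 and 66.2 at 6 hr, and 84.4 and 63.3 at 24 hr. Neither reached a 2-fold difference in both columns at any time.

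**Figure D1:**
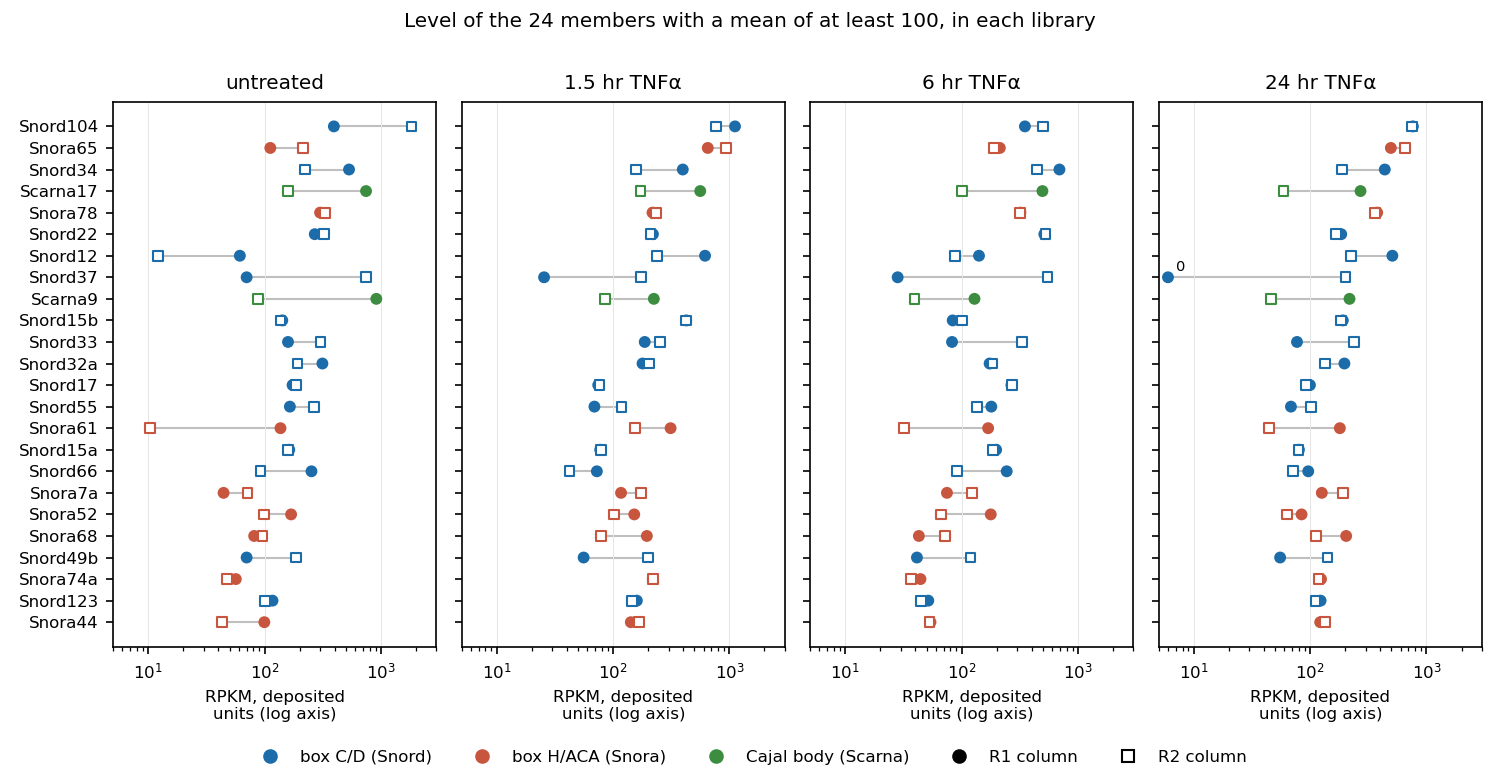
RPKM in deposited units on a log axis for each of the 24 members with a mean of at least 100 units, in the R1 column (filled circles) and the R2 column (open squares) of the untreated, 1.5, 6 and 24 hr libraries, with 1 library per time. Colours mark the class and the grey line joins the columns of a library. Snord37, listed at 0 in R1 at 24 hr, is drawn at the left edge. The columns lie far apart for Scarna9, Scarna17, Snora61 and Snord37 and close together for Snora78, Snord15b and Snord17.

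Among the scaRNAs, 2 of 9 passed the minimum. Scarna17, a scaRNA of the box C/D kind, had 745 and 158 units (R1 and R2) in the untreated library, 561 and 172 at 1.5 hr, 495 and 101 at 6 hr, and 271 and 59.1 at 24 hr. It was lower than untreated in both columns at 6 and 24 hr and by more than 2-fold in both at 24 hr, with log2 ratios of -1.46 and -1.42. Scarna9, which guides modification of U2 small nuclear RNA, had 913 and 87.6 units in the untreated library, 224 and 84.9 at 1.5 hr, 129 and 39.4 at 6 hr, and 218 and 46 at 24 hr. Its R1 value was at least 2-fold lower at every time, whereas its R2 value hardly moved at 1.5 hr (log2 ratio -0.04) and was 2-fold lower at 6 hr alone (log2 ratio -1.15).

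The other 7 scaRNAs had means between 3 and 54.8 units. Scarna13, known as U93, had 41.1 and 47.4 units in the untreated library, 62.1 and 77.4 at 1.5 hr, 28.1 and 26.5 at 6 hr, and 75.7 and 80.2 at 24 hr, with the columns close in each. Scarna8 was at 8.05 and 8.73 units in the untreated library, 15.1 and 15.2 at 1.5 hr, 9.38 and 8.63 at 6 hr, and 67.1 and 65.2 at 24 hr, so that both 24 hr values stood above those of all other times. Scarna2 was almost confined to R1, with 56.9, 74.4, 159 and 67.6 units there against 0, 3.25, 0 and 12 units in R2. Scarna6, which lies in an intron of the autophagy gene Atg16l1, had means of R1 and R2 of 26.5, 41.1, 12.1 and 30.4 units at 0, 1.5, 6 and 24 hr. Scarna3a was at 11.4, 6.56, 0 and 24.7 units, Scarna10 (known as U85) at 20.8, 0, 0 and 12 units, and Scarna3b was listed at 0 until 24 hr, when it was at 12 units. For members this low a value of 0 says only that they were listed at 0.

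TNFα treatment was compared with the untreated library column by column. A member was counted as higher or lower when R1 and R2 were both at least 2-fold from the same column of the untreated library. At 1.5 hr 6 of the 24 members (25%) were higher, against 27.5% of all entries with the same minimum, and 5 (20.8%) were lower, against 8.11%. At 6 hr 1 member (4.17%) was higher, against 1.63%, and 2 (8.33%) were lower, against 27.0%. At 24 hr 4 members (16.7%) were higher, against 15.4%, and 3 (12.5%) were lower, against 12.8%. In all 14 of the 24 (58.3%) were counted at 1 or more times, against 63.1% of all entries with the same minimum, and 10 at none. Whether these shares differ from those of the table was not tested, and a single member changes a share by 4.17 percentage points.

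The classes lay on different sides of the untreated level at 1.5 hr. Of the 8 box H/ACA members, 4 were higher and 0 lower, and their median log2 ratio was 1.23. After the scaling described next, 2 of the 4 (Snora65 and Snora74a) were still higher. Of the 14 box C/D members, 2 were higher and 5 lower. Their median log2 ratio was -0.43, with 11 of 14 below the median of the table. Of all entries with the same minimum, 27.5% were higher and 8.11% lower at 1.5 hr. At 24 hr the box H/ACA median was 0.84, with 3 members higher and 0 lower. The box C/D median was -0.59, with 1 higher and 2 lower, beside 15.4% and 12.8% of all entries. Both Scarna members were below untreated at every time in the mean of the columns, although after scaling Scarna17 was slightly above it at 6 hr (log2 ratio 0.18). Over all 24 members the medians were -0.16, -0.26 and -0.47. The minimum used the mean over all times, so members can pass through the times when they are high. Snord12, Snora74a, Snora7a and Snora61, counted as higher at 1.5 hr, had untreated means of 36.7, 52.1, 57.8 and 73.7 units. Snora65 and Snord15b, also counted, had 162 and 140 units. Among the other box H/ACA members, Snora44 and Snora68 had 71.3 and 88.8 units (singled out for this), and Snora78 and Snora52 had 314 and 134 units. With no minimum, the medians at 1.5 and 24 hr were 0.61 and 0.32 for Snora, -0.23 and -0.73 for Snord, and 0.45 and 0.34 for Scarna. The difference between the classes was not tested. Of the members counted as higher at 1.5 hr, Snord12, Snora65, Snora61 and Snord15b lie within an annotated exon of their host, and Snora74a and Snora7a in introns. Of those counted as lower, Snord37, Snord66, Snord17 and Snord15a lie in introns, and Snord55 had no position. The part of host reads in these ratios was not tested. Members that share a host, such as Snord32a, Snord33 and Snord34 in Rpl13a, are not independent.

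The sign at 6 hr depended on how the libraries were scaled, since the whole table was lower there. When each column was divided by its median ratio over the entries above 0 in all 8 columns, the median log2 ratio of the 24 members at 6 hr went from -0.26 to 0.54, that of Snord from -0.30 to 0.51 and that of Snora from -0.06 to 0.74. With this scaling 7 members were higher at 6 hr (Snora61, Snora7a, Snord12, Snord15a, Snord17, Snord22 and Snord34) and 0 were lower, against 7.25% and 1.95% of all entries. At 1.5 hr 4 were then higher and 5 lower, against 14.6% and 16.8%, and at 24 hr 4 were higher and 4 lower, against 13.9% and 14.3%. The split of the classes kept its direction at 1.5 and 24 hr, with scaled medians of 0.81 and 0.77 for Snora and of -0.85 and -0.66 for Snord. In RNA from whole cultures, fewer cells that carry a transcript and less of it per cell cannot be told apart.

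**Figure D2:**
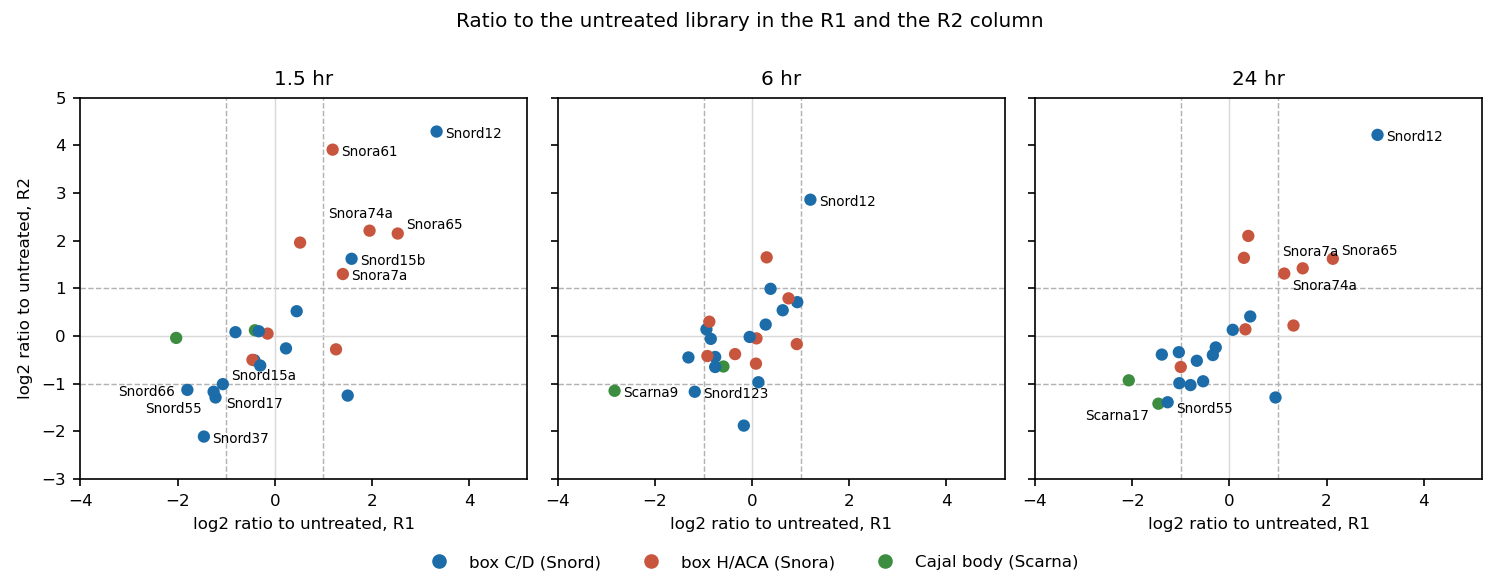
log2 ratio to the untreated library in the R1 column (horizontal axis) against that in the R2 column (vertical axis) for the 24 members with a mean of at least 100 units, at 1.5, 6 and 24 hr. Dashed lines mark 2-fold, and members past 2-fold to the same side in both columns are named. Snord12 lies at the upper right in all 3 panels. Snord37 is not drawn at 24 hr, since its R1 value there is 0.

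Snord12 had the largest ratio to the untreated library of the 24 members and was the only one counted at all 3 times. It had 61.3 and 12.1 units in the untreated library, 617 and 237 at 1.5 hr, 141 and 87.7 at 6 hr, and 509 and 225 at 24 hr. The log2 ratios of the mean of R1 and R2 were 3.54, 1.64 and 3.32, and every treated value was above both untreated values. In R2 the untreated value was near 1 step of the table (1.15), so the ratio in that column (log2 4.29 at 1.5 hr) starts from very little. The untreated mean of R1 and R2 was 36.7 units, so Snord12 passed the minimum through the treated times. Snord12 lies within an exon of 2 of the 5 annotated transcripts of its host gene 1500012F01Rik, which was at 485, 650, 190 and 447 units at 0, 1.5, 6 and 24 hr.

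Snora65 was counted at 1.5 and 24 hr. It had 112 and 213 units in the untreated library, 651 and 941 at 1.5 hr, 213 and 189 at 6 hr, and 494 and 653 at 24 hr, with log2 ratios of 2.29, 0.31 and 1.82. Snora65 lies within an exon of 3 of the 7 annotated transcripts of its host gene Rpl12. Rpl12 encodes a protein of the large ribosomal subunit and had log2 ratios of 1.26, -1.15 and 0.85. The part of host reads in the level of Snora65 was not tested. Snora74a, also known as U19, had 56.6 and 47.7 units in the untreated library, 219 and 221 at 1.5 hr, 44.3 and 36.8 at 6 hr, and 124 and 118 at 24 hr. Its columns were within 1.3-fold of each other in each library, and the 1.5 and 24 hr values stood above the others. Snora7a, in an intron of the ribosomal protein gene Rpl32, had 44.4 and 71.3 units in the untreated library, 117 and 175 at 1.5 hr, 74.8 and 123 at 6 hr, and 126 and 191 at 24 hr. Snora61 was at least 2-fold higher at 1.5 hr in both columns but by very different amounts, from 137 to 312 units in R1 and from 10.3 to 155 units in R2. The untreated R2 value of Snora61 was 1.41 steps, so the ratio in that column starts from very little. Snora61 also lies within an exon of 1 of the 6 annotated transcripts of its host gene Snhg12. After scaling neither Snora7a nor Snora61 was counted at 1.5 hr, whereas Snora7a was still counted at 24 hr.

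Among the 24 members Snord37 had the lowest ratios at 1.5 and 24 hr. Its values were 70.1 and 745 units in the untreated library, 25.5 and 173 at 1.5 hr, 28.2 and 547 at 6 hr, and 0 and 201 at 24 hr, with log2 ratios of the mean of -2.04, -0.50 and -2.02. At 24 hr R1 was listed at 0, so a ratio was available from R2 alone. The R1 values of Snord37 were only 4.69, 1.8, 1.62 and 0 steps of the table at 0, 1.5, 6 and 24 hr. Its count in both columns at 1.5 and 24 hr therefore rests on very little in R1. Snord37 lies in an intron of Eef2, the translation elongation factor that moves the ribosome along the mRNA. Eef2 itself was at 12296, 31543, 7178 and 19904 units at 0, 1.5, 6 and 24 hr, so host and member differed from untreated in opposite directions at 1.5 and 24 hr. Snord66, in an intron of the translation initiation gene Eif4g1, had 253 and 92.4 units in the untreated library, 72.5 and 42.1 at 1.5 hr, 244 and 90.9 at 6 hr, and 96.3 and 70.7 at 24 hr. Snord17, the longest located box C/D member at 238 bases, had 174 and 187 units in the untreated library, 74.5 and 76.5 at 1.5 hr, 268 and 272 at 6 hr, and 99.6 and 91.9 at 24 hr. In Snord17 the columns were within 1.3-fold at every time, with 1.5 and 24 hr below and 6 hr above the untreated library. Snord55 had 165 and 267 units in the untreated library, 69.1 and 118 at 1.5 hr, 180 and 136 at 6 hr, and 68.4 and 102 at 24 hr, so the same pair of times was low. Snord123 was counted at 6 hr, where it was at 51.7 and 44.9 units after 117 and 101 units in the untreated library, 160 and 145 at 1.5 hr and before 123 and 111 at 24 hr. Its log2 ratio at 6 hr was -1.17, beside a median of -0.73 over the table.

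The R1 and R2 columns lay farther apart in these RNAs than in the table at large, by their medians. The median absolute log2 ratio of R1 to R2 over the 55 members above 0 in all columns was 0.713, 0.464, 0.464 and 0.416 at 0, 1.5, 6 and 24 hr. Over the 19091 entries of the table above 0 in all columns it was 0.0874, 0.0736, 0.139 and 0.0848. It was 0.795, 0.55, 0.599 and 0.568 for Snord and 0.511, 0.446, 0.287 and 0.32 for Snora. Other entries with as many steps behind them as the located members above the minimum (846 entries) had medians of 0.13, 0.112, 0.218 and 0.129, against 0.843, 0.534, 0.577 and 0.43 for these members.

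In 4 of the 55 members (7.27%) the columns were at least 2-fold apart to the same side in all 4 libraries, against 0.534% of the table. Among the located members above the minimum it was 4 of 22 (18.2%), against 2.21% of the other entries with as many steps. R1 was the higher in Scarna17, with log2 ratios of R1 to R2 of 2.23, 1.71, 2.29 and 2.20, and in Scarna9, with 3.38, 1.40, 1.71 and 2.24. The same held for Snora61, where the ratios were 3.74, 1.01, 2.39 and 2.03. Snord49b, singled out like the others for this difference, went the other way, with 70.1 and 187 units in the untreated library, 55.8 and 200 at 1.5 hr, 41.3 and 119 at 6 hr, and 55.2 and 141 at 24 hr. Snord37, with a column at 0, also had R2 above R1 throughout. By contrast Snora78, Snord15a, Snord15b, Snord17, Snord123 and Snora74a had columns within 1.3-fold in each library. What the columns hold was not given in the sources used here, and the part of library construction in these differences was not tested.

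**Figure D3:**
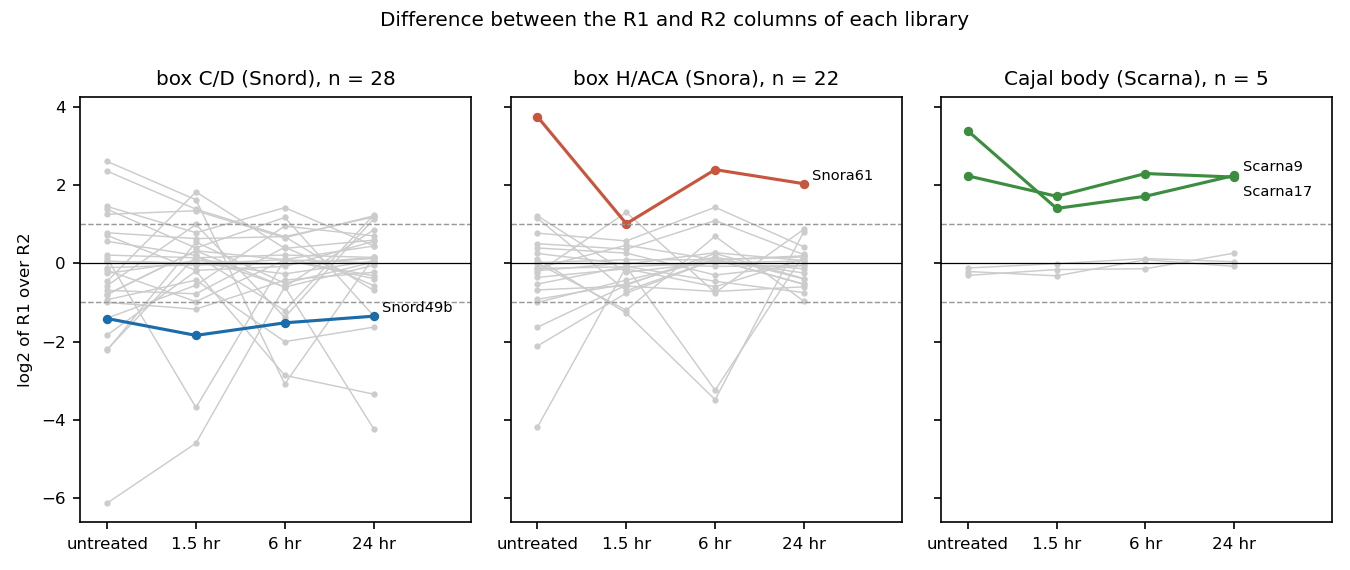
log2 of the R1 over the R2 value in each of the 4 libraries for the 55 members above 0 in all 8 columns, by class (28 Snord, 22 Snora, 5 Scarna), each line a member. Dashed lines mark 2-fold. The coloured and named members, Snord49b, Snora61, Scarna9 and Scarna17, were past 2-fold to the same side in all 4 libraries, while most lines cross 0.

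Host genes were found for 86 of the 93 located members, in 65 different genes. Scarna2, Scarna13, Scarna17, Snord104, Snord123, Snord64 and Snord7 lay outside any annotated gene on their strand. In the annotation 56 members lay in introns, 26 within an exon of at least 1 transcript of the host and 4 across an exon boundary. Reads from these exons could add to a member's value, and how the authors' counting treated overlaps was not given in the sources used here. Ribosomal protein genes (with Gnb2l1, which encodes the ribosomal protein RACK1) held 25 members, translation factor genes (with Tpt1) 7, genes of the nucleolar proteins Nop56, Nop58, Ncl and Gnl3 8, noncoding genes 14 and other genes 32. Whether a host was coding or noncoding was read from its type in the annotation alone, which lists 1500012F01Rik and 1810032O08Rik as protein-coding. Of the 25 members in ribosomal protein genes 9 passed the minimum, of the 14 in noncoding genes 6, and of the 8 in nucleolar protein genes 0.

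The members were far below most of their hosts in deposited units, and the part of poly(A) and size selection in this gap was not tested. Over the 81 members with a level above 0 and a host in the table, the correlation of log2 levels across genes was 0.35 (Pearson) and 0.38 (Spearman), given as a description since genes that share hosts and libraries are not independent. The median level of a member was 0.0352 of that of its host, from 0.00367 in ribosomal protein genes to 0.155 in noncoding genes. In 3 cases the member was above its host. Scarna9 was at 5.02 times the level of 5830418K08Rik, Scarna8 at 1.79 times that of Haus6, and Snora78 at 1.79 times that of the noncoding gene Snhg9. These ratios of means over the 8 columns did not hold in each library and column. In R2 at 24 hr Scarna9 was at 46 units beside 45.4 for its host. By the mean of R1 and R2, Scarna8 was above Haus6 at 24 hr alone (66.1 and 14.6 units). In R1 at 1.5 hr Snora78 (218 units) was below Snhg9 (297 units). Snord22 reached 0.78 of the level of Snhg1, a noncoding gene known as a host of several snoRNAs.

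**Figure D4:**
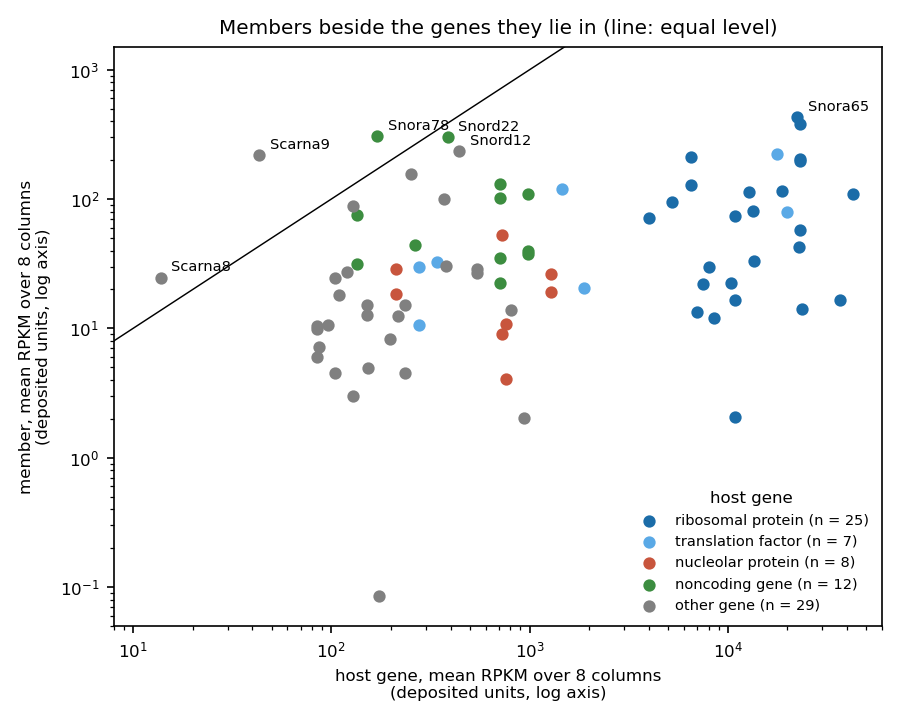
Mean RPKM over the 8 columns of the member (vertical axis) against that of its host gene (horizontal axis), both in deposited units on log axes, for the 81 members with a host in the table and both levels above 0. Colours mark the kind of host and the line marks equal level. Scarna9, Scarna8 and Snora78 lie above the line, and members in ribosomal protein genes lie farthest below it.

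The ratios of members and hosts to the untreated library can be set side by side. Over the 19 members above the minimum with a host in the table, Spearman correlations across genes of the log2 ratios were -0.17, -0.03 and -0.20 at 1.5, 6 and 24 hr, and Pearson correlations -0.11, -0.09 and -0.15, again as a description. The signs were shared in 9, 11 and 9 of the 19 pairs. The sign of the correlation depended on the minimum, since over all located members with a host and a ratio (70, 61 and 71) the Spearman correlations were 0.24, 0.10 and 0.10, with 43, 36 and 39 shared signs. Over the 19 pairs the hosts had median log2 ratios of 0.70, -0.87 and 0.11 and the members of -0.07, -0.04 and -0.39. Over all located members with a host they were 0.62, -0.75 and 0.12 for hosts and 0.30, -0.15 and -0.10 for members. At 6 hr 17 of the 19 members had a higher ratio than their host. Over all 61 located members with a host and a ratio at 6 hr, 18 had a lower ratio than their host. Of the 24 members above the minimum, 3 were below the median of the whole table at 6 hr, so the difference was not particular to the hosts.

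Members of a single host could part from each other. Rps3 encodes a protein of the small ribosomal subunit and holds Snord15a in an intron and Snord15b within an exon of 1 of its 4 annotated transcripts (Snord15a and Snord15b were singled out after their values were seen). Snord15a had 163 and 158 units in the untreated library, 77.5 and 78.3 at 1.5 hr, 198 and 186 at 6 hr, and 80.1 and 79.5 at 24 hr. Snord15b had 142 and 137 units in the untreated library, 425 and 421 at 1.5 hr, 83.8 and 101 at 6 hr, and 191 and 183 at 24 hr. The columns lay close together in both, and the order of the pair changed from time to time, with Snord15a the higher at 0 and 6 hr and Snord15b at 1.5 and 24 hr. The log2 ratios at 1.5, 6 and 24 hr were -1.04, 0.26 and -1.01 for Snord15a, 1.60, -0.59 and 0.42 for Snord15b, and 1.68, -0.57 and 1.29 for Rps3. After scaling they were -1.47, 1.06 and -1.07 for Snord15a and 1.18, 0.21 and 0.35 for Snord15b, so the opposite signs remained at 1.5 and 24 hr and were lost at 6 hr. As deposited Snord15b had the sign of Rps3 at each time and Snord15a the other, and Snord15b is the member of the pair that overlaps an annotated exon of Rps3. The part of host reads in its level was not tested.

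Rpl13a, which encodes a protein of the large ribosomal subunit, holds 4 members (singled out after their values were seen), and these snoRNAs are known from work on lipid and oxidative stress. Their means over the 8 columns were 197 units for Snord32a, 204 for Snord33, 384 for Snord34 and 57.3 for Snord35a, a 6.7-fold range within a single host. Rpl13a had log2 ratios of -0.23, -1.04 and -0.62 at 1.5, 6 and 24 hr. Those of Snord32a were -0.41, -0.50 and -0.61, of Snord33 -0.07, -0.15 and -0.55, of Snord34 -0.45, 0.59 and -0.27, and of Snord35a -1.05, -0.67 and -0.98. By the mean of the columns as deposited the 4 were below untreated at 1.5 and 24 hr, and Snord34 was above it at 6 hr. At 1.5 hr the columns differed in sign for Snord33, with log2 ratios of 0.23 in R1 and -0.26 in R2, and for Snord32a, with -0.81 and 0.08. After scaling Snord32a (0.31), Snord33 (0.67) and Snord34 (1.39) were above untreated at 6 hr. Snord35a was under the minimum.

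Snhg12, a noncoding gene of the kind whose known product is its snoRNAs, holds Snora16a, Snora44, Snora61 and Snord99 (Snora44 was singled out after its values were seen), and its own log2 ratios were 0.70, -0.75 and -0.21. Snora44, with 99.5 and 43.1 units in the untreated library, 142 and 167 at 1.5 hr, 54 and 52.9 at 6 hr, and 122 and 134 at 24 hr, was at least 2-fold higher at 1.5 and 24 hr in R2 alone. Snora61 had 169 and 32.2 units at 6 hr and 180 and 44.2 at 24 hr. In Snhg1 the member and the host parted. Snhg1 was at 181, 721, 178 and 466 units at 0, 1.5, 6 and 24 hr while Snord22, described above, had log2 ratios of -0.46, 0.81 and -0.75. Snord22 lies within an exon of 2 of the 2 annotated transcripts of Snhg1, and the part of host reads in its level was not tested. The 15 hosts with more than 1 member held 36 members between them, and within a host the highest mean was between 1.08 and 6.7 times the lowest.

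**Figure D5:**
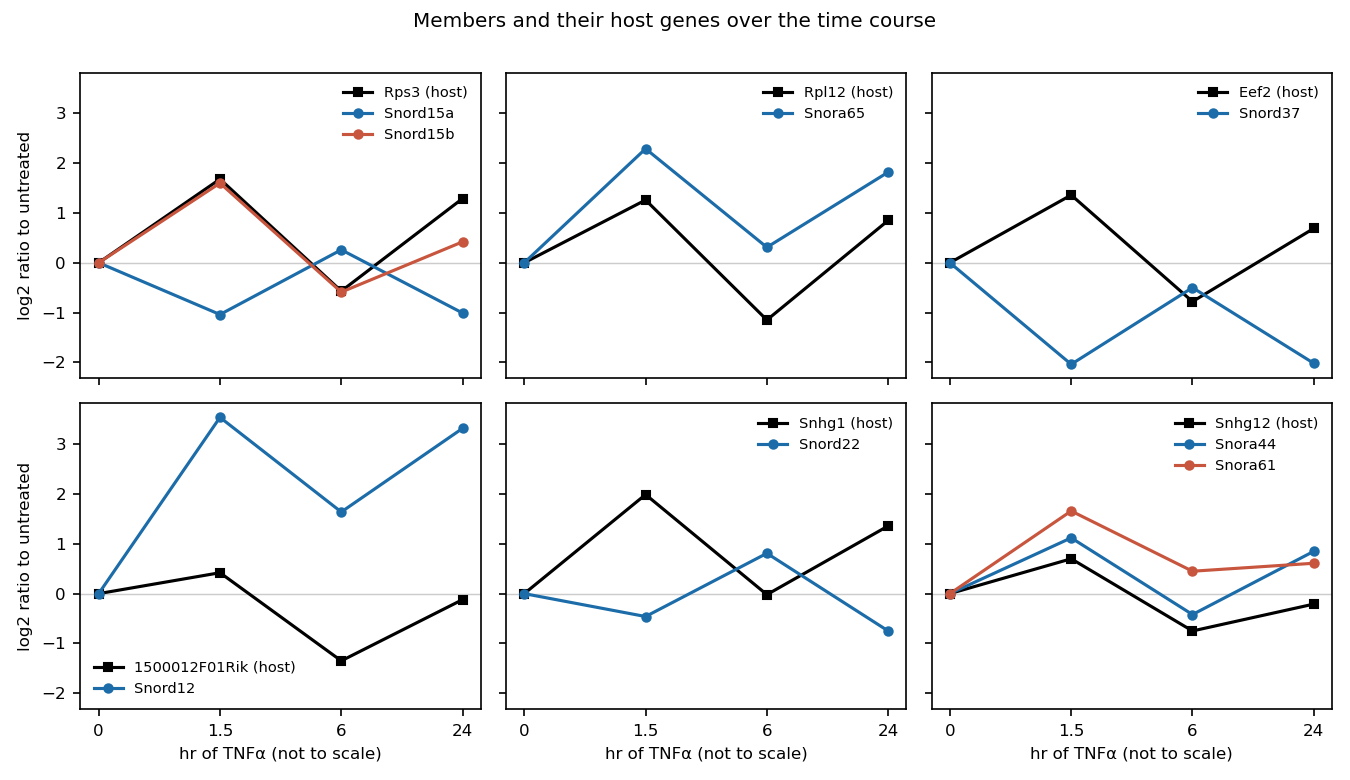
log2 ratio to the untreated library of the mean of R1 and R2 for 6 host genes (black squares) and the members they hold (coloured circles) at 0, 1.5, 6 and 24 hr, with 1 library per time and the times not to scale. Snord15b lies on the line of Rps3 at 1.5 and 6 hr while Snord15a mirrors it, and Snord37 and Snord22 lie below their hosts at 1.5 and 24 hr and above them at 6 hr.

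H3K4me3 peaks of untreated cells were compared with the positions of the members. At least 1 base of a peak overlapped 60 of the 93 located members (64.5%), against 6.72% of the 1459 other genes that the annotation types as snoRNA. Whether those other genes lie in host genes or are transcribed was not examined. Among members with a host, the 55 overlapped by a peak lay at a median of 2049 bases from the start of the host and the 31 not overlapped at 14454 bases. Of the 65 host genes, 62 (95.4%) had a peak no farther than 1 kb from where their annotation starts. Of all annotated protein-coding genes 47.9% had such a peak, and 89.0% of those that reached 100 units did, against 48 of 49 coding hosts with that level. Hosts without a peak were Htr2c, listed at 0, Eif4g1 and the noncoding gene Gm15832. Of the 7 members outside any gene, Snord104, Snord123, Scarna2, Scarna13 and Scarna17 lay within a peak, with fold enrichments over input of 98.6, 25.6, 42.1, 61.3 and 99.2 as the authors' peak caller gave them, and Snord7 and Snord64 did not.

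The protein partners of these RNAs were read from a list of 26 genes, of which 18 passed the minimum. At 1.5 hr 5 of the 18 were at least 2-fold higher in both columns and 0 lower, at 6 hr 1 was higher and 1 lower, and at 24 hr 5 were higher and 2 lower, beside the shares of the table given above. Their median log2 ratios were 0.75, -0.52 and 0.45, and 0.33, 0.28 and 0.39 after scaling, so the sign at 6 hr turned with the scaling here too. After scaling 4 were higher and 2 lower at 1.5 hr, 2 and 0 at 6 hr, and 4 and 2 at 24 hr. Dkc1 is the pseudouridine synthase of box H/ACA particles. It was at 55.7 units in the untreated library and at 139, 150 and 169 units at 1.5, 6 and 24 hr. As deposited Dkc1 was the gene of the list that was higher at 6 hr, and after scaling Nop58, of the box C/D core, was higher there too. Nop10, another box H/ACA core protein, was at 394, 1356, 325 and 1023 units, and Gar1, which belongs to the same core, at 180, 319, 62.8 and 203 units, more than 2-fold lower at 6 hr in both columns but not after scaling. Nhp2, the remaining box H/ACA core protein, was at 1787, 1507, 1264 and 1451 units.

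Among box C/D core proteins Nhp2l1, which binds the kink-turn of the RNA first, was at 227, 1021, 238 and 678 units at 0, 1.5, 6 and 24 hr. Fbl, the methyltransferase fibrillarin, was at 1042, 1685, 634 and 1359 units and did not reach 2-fold in both columns at any time. Nop56 was at 1154, 1359, 1134 and 1482 units and Nop58 at 545, 677, 1028 and 783 units. Both are themselves hosts, of Snord110 and Snord57 and of Snord11 and Snord70, which had means of 26.4, 19.2, 10.9 and 4.06 units. Of the assembly factors Ruvbl1 was higher at 1.5 and 24 hr (at 1.5 hr alone after scaling), and Pih1d1 (1270, 608, 892 and 519 units) and Znhit6 (152, 97.7, 92.5 and 69 units) were lower at 24 hr. Xrn2, an exonuclease that trims snoRNA precursors, was at 63.3, 235, 54.9 and 161 units, and Dbr1, which opens the intron lariats they are cut from, was at 17.5, 71.6, 13.9 and 44.9 units and under the minimum.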

How the data were processed

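RNA from primary MEFs, untreated or treated with TNFα for 1.5, 6 or 24 hr, had been sequenced with 1 library per time. Reads had been aligned to the mm9 genome by TopHat, RPKM per RefSeq transcript came from a script of the authors, and the deposited table gives an R1 and an R2 column for each library. For ChIP-seq the authors used Bowtie as aligner and MACS as peak caller, and the deposited peak list gives a count of tags and a fold enrichment over input for each peak. Its other columns, and the input library, were not used here.

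The members and gene lists were chosen with earlier results of these data known. The minimum was a mean of 100 deposited units over the 8 columns, and a change of 2-fold in both columns was counted with no pseudocount. A value above 0 after 0 in the untreated column counted as higher. Named were all Scarna members, the 5 Snord and the 5 Snora members with the highest means, and at each time the 3 members with the largest rise and the 3 with the largest fall among those counted, with their hosts. Members named beyond this are said to have been singled out. Levels come from the R1 and R2 columns or their mean. Positions, hosts and exons came from GENCODE vM1 (mm9), which held 93 of 109 members under their symbol. A host is the gene on the same strand that spans the member, the one with the highest level where there were several. Identities came from global alignments with Biopython 1.88. The alternatives were the mean of the columns, no minimum, a 3-fold threshold, a pseudocount of 100, scaling to a common median of ratios, and other limits on peaks. Of the leukocyte marker list, 1 gene is not reported here. The counting step was tested on simulated data. Python 3.11.15, numpy 2.4.6, pandas 2.3.3, scipy 1.17.1 and samtools 1.23.1 were used.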

Additional observations from a re-analysis of the deposited data

How the results depend on the processing

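With 1 library per time there was no spread between replicates and no library could be left out. No paired analysis was possible because each time had 1 library. The counts of members higher at 1.5, 6 and 24 hr (6, 1 and 4) became 20, 8 and 16 with no minimum level, and those lower (5, 2 and 3) became 15, 23 and 16. At 3-fold, 0, 0 and 1 were lower at 1.5, 6 and 24 hr, and 0 and 2 were higher at 6 and 24 hr. With a pseudocount of 100 these counts were 0, 0 and 0 lower and 0 and 2 higher. With the mean of the columns in place of both, 6 were lower at 24 hr. Scaling to a common median of ratios gave 7 higher and 0 lower at 6 hr. The median log2 ratio of the members at 1.5 hr (-0.16) turned to 0.30 with no minimum and went to -0.59 with scaling. At 6 hr (-0.26) it turned to 0.54 with scaling and was -0.11 with the pseudocount, and at 24 hr (-0.47) it was -0.15 with no minimum and -0.28 with the pseudocount. The Spearman correlation with hosts at 6 hr (-0.03) was -0.01 with scaling, and no member with a host reached the mean of 1000 planned as an alternative minimum. With no minimum more members enter, and the pseudocount shrinks every ratio. Scaling removes the lower level of the whole 6 hr library by construction, and the cause of that level was not tested. The other 21 of 46 alternatives, those on peaks among them, stayed within 1.5 times the count or, for a median, no farther from the reported value than the median of R1 or R2 alone, whichever was farther, and the correlations at 1.5 and 24 hr were the same with scaling to 2 decimals.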
